A study of Capra hircus with 2 samples.

Results

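The 4 miRNA genes described here, miR-142, miR-150, miR-223 and miR-342, are known chiefly from white blood cells, and 5 of their mature products were followed in small RNA from the mammary gland of dairy goats: miR-142-5p, miR-142-3p, miR-150-5p, miR-223-3p and miR-342-3p. The files list each distinct read sequence, or tag, with its number of reads, and a number of tags given here counts reads. A tag of 18 nt or more was assigned to a product when its 5' end lay at the mature first base or 1 or 2 bases further in, its own first 18 bases were those of the mature form, and it was no more than 3 bases longer. The 5 products held 7877 of the 7385833 clean tags in early involution and 4235 of the 18031615 in early lactation, or 0.107% and 0.0235%. Set beside them are 439 tag families of miRNA length from the same libraries, each made of tags that share their opening bases.

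The early involution library represents the gland on day 5 after forced weaning at late lactation, which was day 218 after parturition, and the early lactation library represents day 10 after parturition. Each library was made from 1 pool of RNA from 5 goats, so there is no replicate, no p-value is given, and the spread between animals is unknown. Time since parturition differs along with weaning, and the effects of these cannot be told apart. All intervals are 95% intervals for counting error alone, since each stage has 1 library. PCR copies carried no molecular identifiers and were counted as separate reads, so the intervals may be too narrow even for counting error. Levels are given per 1000000 clean tags (TPM, for tags). The whole tissue was sequenced, so more white blood cells and more of a miRNA per cell cannot be told apart. With 1 library per stage, differences in library preparation cannot be told apart from differences between the stages either.

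A miRNA acts through its seed, bases 2 to 8 from the 5' end, which pairs with target mRNAs, so that a tag starting 1 base later carries another seed. In mammals miR-142 is made in nearly all cells of the blood lineage and both of its arms are in use. From studies in mouse and human, miR-150 marks mature lymphocytes and restrains the transcription factor MYB, and miR-223 is most abundant in neutrophils and other myeloid cells. The miR-342 gene lies within the EVL gene, which encodes an actin regulator, and is expressed in lymphoid and myeloid cells. In the RefSeq gene table for goat assembly ARS1.2, where 3 genes were matched by symbol (MIR150, MIR223 and MIR342), MIR342 also lies within EVL, and the gene nearest to MIR223 is VSIG4. White blood cells enter the gland in larger numbers when milk removal stops.

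The commonest tag with the known opening of each product is given here with its seed in capitals, because the seed and the ends of these tags are what the results turn on. No seed is shared among the 5.
miR-142-5p: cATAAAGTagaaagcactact
miR-142-3p: tGTAGTGTttcctactttatgg
miR-150-5p: tCTCCCAAcccttgtaccagtg
miR-223-3p: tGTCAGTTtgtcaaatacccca
miR-342-3p: tCTCACACagaaatcgcacccatc

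All 5 products were higher in involution than in lactation, from 3.37-fold for miR-142-3p to 10.96-fold for miR-342-3p. A product was called higher when its level was at least 2-fold greater with an interval that excluded 1 and at least 10 TPM in a library, and 5 of the 5 met this. Of the 439 tag families at 10 TPM or more in both libraries, 24.6% met it as well, and of the 650 at 10 TPM or more in at least 1 library, 40.0% did. The median log2 ratio was 2.54 over the 5 products and 0.30 over the 439 families. These counts describe 2 libraries and carry no test.

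The myeloid miR-223-3p stood at 163.8 TPM in involution (154.7 to 173.3) and 19.4 TPM in lactation (17.4 to 21.6), from 1210 and 350 tags. Its involution level was 8.44 times its lactation level (7.49 to 9.53), and 15 of the 439 families, or 3.42%, had a higher ratio.

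The lymphocyte product miR-150-5p reached 98.4 TPM in involution (91.4 to 105.9) against 16.9 TPM in lactation (15.1 to 18.9). That is 727 tags in involution and 305 in lactation, and a ratio of 5.82 (5.08 to 6.67). Of the families, 26 exceeded it.

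For miR-342-3p the levels were 193.9 TPM in involution (183.97 to 204.2) and 17.7 TPM in lactation (15.8 to 19.7), on 1432 and 319 tags. The ratio of 10.96 (9.70 to 12.4) was the highest of the 5, with 11 families above it.

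The most abundant product in both stages was miR-142-3p, at 559.4 TPM in involution (542.5 to 576.8) and 165.8 TPM in lactation (159.9 to 171.9). It had 4132 tags in involution and 2990 in lactation, and its ratio was 3.37 (3.22 to 3.54). The other arm, miR-142-5p, stood at 50.9 TPM in involution (45.9 to 56.3) and 15.03 TPM in lactation (13.3 to 16.9), on 376 and 271 tags, a ratio of 3.39 (2.89 to 3.97). Counted this way, the arms kept nearly the same proportion, with 10.99 miR-142-3p tags per miR-142-5p tag in involution and 11.03 in lactation. Both arms had 59 of the 439 families above them.

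**Figure D1:**
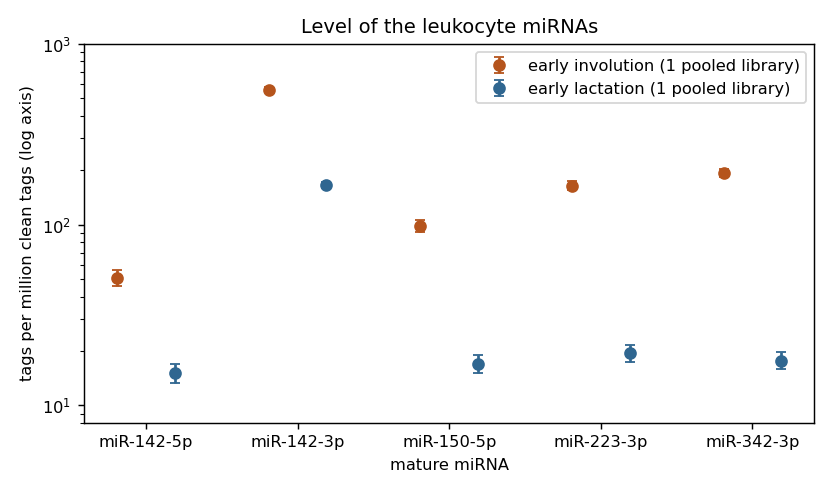
Level of each product in tags per 1000000 clean tags (TPM) on a log axis, early involution in orange and early lactation in blue, 1 pooled library each, with bars for the 95% Poisson counting interval. All 5 orange points lie above the blue ones, and the 4 products other than miR-142-3p lie between 15.03 and 19.4 TPM in lactation but are spread from 50.9 to 193.9 TPM in involution. Levels are by the assignment rule, which leaves out tags with added 5' bases.

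By the assignment rule, the order of the products differed between the stages. In involution it ran miR-142-3p, miR-342-3p, miR-223-3p, miR-150-5p and miR-142-5p, and no neighbouring pair had overlapping intervals. In lactation miR-142-3p again came first, and the others followed as miR-223-3p, miR-342-3p, miR-150-5p and miR-142-5p, where each interval overlapped the next. Accordingly miR-142-3p made up 52.5% of the tags of the 5 products in involution and 70.6% in lactation. The share of miR-342-3p was 18.2% in involution and 7.53% in lactation, and that of miR-223-3p 15.4% and 8.26%. The place of miR-142-5p depended on the rule, which leaves out tags with added 5' bases. With starts from 3 bases before to 2 bases after the first base, it stood at 44.9 TPM in lactation (41.9 to 48.1). That was above every product but miR-142-3p. In involution it then stood at 95.05 TPM (88.1 to 102.3), and its interval overlapped that of miR-150-5p, at 101.7 TPM (94.5 to 109.2).

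**Figure D2:**
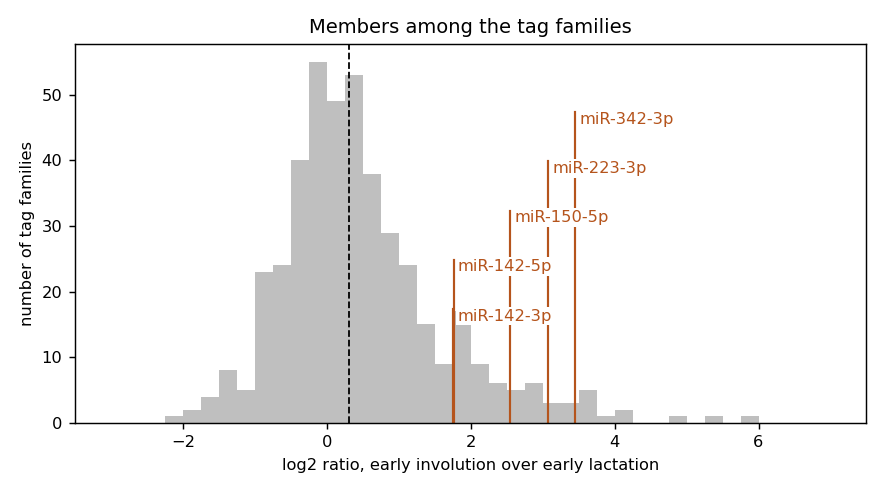
Histogram of the log2 ratio of early involution over early lactation for the 439 tag families at 10 TPM or more in both libraries, with their median of 0.30 as a dashed line and the 5 products as orange lines. The products sit between 1.75 and 3.45, on the right side of the distribution.

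The 5' end of miR-142-3p differed between the stages. Tags that began at the second base, and so carried another seed, made up 38.2% of the arm in involution (36.7 to 39.7%) and 17.3% in lactation (15.9 to 18.7%), counted over starts from 3 bases before to 3 bases after the first base. Their level was 218.7 TPM in involution (208.1 to 229.6) and 28.7 TPM in lactation (26.3 to 31.3), a ratio of 7.61 (6.89 to 8.42). Tags that began at the first base stood at 334.8 TPM in involution (321.8 to 348.3) and 135.2 TPM in lactation (129.9 to 140.7), a ratio of 2.48 (2.34 to 2.62). There were thus 0.653 tags of the later start per tag of the first in involution, and 0.212 in lactation. This proportion is taken within each library and does not depend on how the libraries are scaled.

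The leading tags of the miR-142-3p starts are shown with their seeds in capitals.
miR-142-3p from its first base: tGTAGTGTttcctactttatgg
miR-142-3p from its first base, 1 base longer: tGTAGTGTttcctactttatgga
miR-142-3p from its second base: gTAGTGTTtcctactttatgga
The tag from the second base had 973 reads in involution and 240 in lactation, a ratio of 9.90 (8.59 to 11.4). The commonest lactation tag, from the first base and 22 nt long, had 1106 and 1745 reads, a ratio of 1.55 (1.43 to 1.67). The same start with 1 more A had 1001 reads in involution and 557 in lactation, a ratio of 4.39 (3.95 to 4.88). Among tags from the second base, the 21 nt tag without that A had 395 reads in involution and 232 in lactation, a ratio of 4.16 (3.53 to 4.91), and the 23 nt tag with a second A had 147 and 24, a ratio of 14.95 (9.67 to 24.1). The first-base tag that ended 1 base earlier, 21 nt long, had 87 reads in involution and 64 in lactation, a ratio of 3.32 (2.38 to 4.66), so the ratios of the leading tags did not follow the position of the 3' end throughout.

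The share of miR-142-3p tags lacking 1 base, taken among the tags of the assignment rule, was 21.8 percentage points greater in involution than in lactation. Among 275 tag families with at least 300 tags in each library the median difference was 0.0787 points, and 1 family had a larger one. The median share of tags lacking 1 base over these families was 6.71% in involution and 5.99% in lactation. Families other than miRNAs, such as fragments of longer RNAs, are among the 275.

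The arm miR-142-5p had 2 main starts, and the commoner one in lactation lay outside the assignment rule. Tags that began 2 bases earlier, with CC before the mature first base in nearly all cases, numbered 313 in involution and 537 in lactation.
miR-142-5p from its first base: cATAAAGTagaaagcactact
miR-142-5p from 2 bases earlier: cCCATAAAgtagaaagcactac
miR-142-5p from 2 bases earlier, 20 nt: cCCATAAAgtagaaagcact
The seeds of these starts are 2 bases apart. The earlier start made up 44.6% of the arm in involution (40.9 to 48.4%) and 66.3% in lactation (62.9 to 69.5%), and the mature start 46.2% (42.4 to 49.9%) in involution and 33.0% (29.7 to 36.3%) in lactation.

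The starts of miR-142-5p differed in level between the stages as well. The earlier start stood at 42.4 TPM in involution (37.8 to 47.3) and 29.8 TPM in lactation (27.3 to 32.4), a ratio of 1.42 (1.23 to 1.64). The mature start stood at 43.9 TPM in involution (39.2 to 48.9) and 14.8 TPM in lactation (13.1 to 16.7), a ratio of 2.96 (2.51 to 3.50). Within the earlier start, the 20 nt tag had 85 reads in involution and 260 in lactation, a ratio of 0.80 (0.62 to 1.02), while the 22 nt tag had 126 and 206, a ratio of 1.49 (1.19 to 1.87). The 20 nt tag was the only one of the leading tags of the arm with a ratio under 1, and its interval included 1. With starts from 3 bases before to 2 bases after the first base, miR-142-5p had 702 tags in involution and 810 in lactation, and its ratio was 2.12 (1.91 to 2.34) instead of 3.39. The arms were then no longer in equal proportion, with 5.95 miR-142-3p tags per miR-142-5p tag in involution and 3.69 in lactation.

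A start at the second base was also more frequent in involution for miR-142-5p and miR-223-3p. It took 49 tags in involution and 4 in lactation for miR-142-5p, or 6.98% (5.21 to 9.12%) and 0.494% (0.135 to 1.26%) of the arm. For miR-223-3p it took 72 and 4 tags, or 5.86% (4.62 to 7.33%) and 1.14% (0.312 to 2.90%). In miR-150-5p and miR-342-3p few tags lacked 5' bases, with 3 tags of miR-150-5p in involution and 2 in lactation, and 25 tags of miR-342-3p in involution and 8 in lactation.

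**Figure D3:**
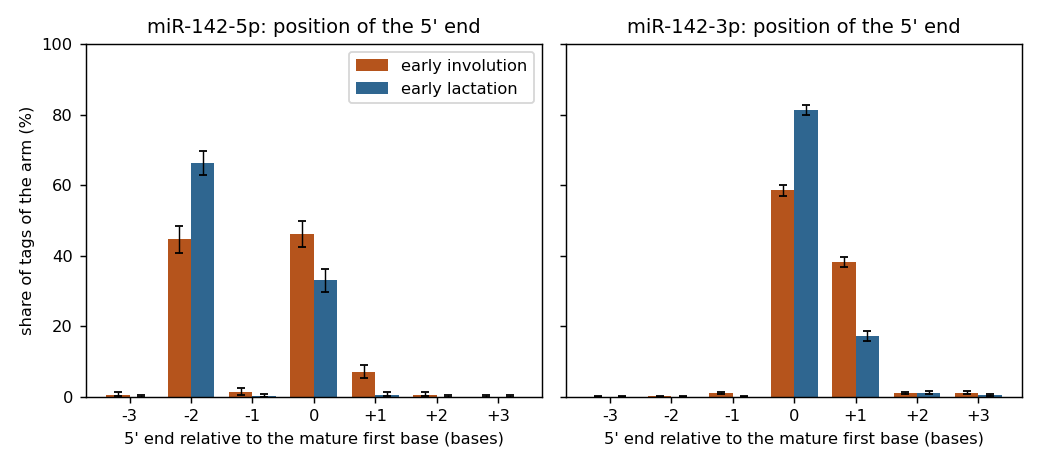
Share of the tags of miR-142-5p (left) and miR-142-3p (right) by the position of their 5' end relative to the first base of the mature form, negative where bases are added and positive where they are missing, with bars for the exact 95% interval. At position -2 of miR-142-5p the involution bar reaches 44.6% and the lactation bar 66.3%, and at position +1 of miR-142-3p they reach 38.2% and 17.3%.

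Added 5' bases other than CC appeared mainly in involution. Tags of miR-142-3p, miR-150-5p, miR-223-3p and miR-342-3p with 1 added base numbered 40, 16, 13 and 26 in involution, where the base was A or C in nearly all, and 0 in lactation for each. The interval for a count of 0 ran up to 0.205 TPM in lactation. Over the 275 families the median proportion of tags with 1 added base, per tag assigned, was 2.43% in involution and 0.912% in lactation, so the libraries differed in this respect at large. Its part in the difference of the 5' ends was not tested.

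At the 3' end, tags from the first base that ran past the commonest form were more frequent in involution for all 5 products. They made up 47.2% of miR-142-3p tags in involution (45.2 to 49.2%) and 24.8% in lactation (23.1 to 26.5%). For miR-142-5p the shares were 26.2% (21.5 to 31.4%) in involution and 14.2% (10.3 to 19.0%) in lactation. For miR-150-5p they were 19.9% (17.04 to 23.0%) and 12.5% (9.03 to 16.8%), and the intervals lay apart for these 3. The intervals overlapped for miR-223-3p, at 40.9% (38.1 to 43.9%) in involution and 35.8% (30.8 to 41.1%) in lactation, and for miR-342-3p, at 11.2% (9.63 to 12.996%) and 6.43% (3.97 to 9.76%). Within the longer tags of miR-223-3p, those of 24 nt went the other way. They took 6.50% (5.14 to 8.09%) in involution and 13.9% (10.4 to 18.0%) in lactation. Over the 275 families the median share of longer tags was 21.01% in involution and 20.04% in lactation.

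The added 3' base, meaning here a base past the end of the commonest tag, was A or T in most tags of each product. In miR-223-3p in lactation a single G was added in 7 tags, beside 34 with A and 30 with T. A single added A took 40.5% of miR-142-3p tags from the first base in involution (38.5 to 42.4%) and 22.8% in lactation (21.2 to 24.6%), and 22.2% (17.8 to 27.1%) and 10.9% (7.40 to 15.2%) of those of miR-142-5p. For miR-150-5p it took 13.4% (11.001 to 16.1%) in involution and 7.26% (4.61 to 10.8%) in lactation. In miR-223-3p both bases were added about equally, A at 15.99% (13.9 to 18.3%) in involution and 9.83% (6.90 to 13.5%) in lactation, and T at 16.7% (14.6 to 19.0%) and 8.67% (5.93 to 12.1%). For miR-142-3p the leading tag from the fourth base (19 reads in involution, 3 in lactation) ran past the end of the commonest tag as ATG. No goat hairpin sequence was used, so a base encoded in the gene and a base added to the finished miRNA are not separated here.
miR-223-3p with 1 A: tGTCAGTTtgtcaaataccccaa
miR-223-3p with 1 T: tGTCAGTTtgtcaaataccccat
The T-ending tag had 190 reads in involution and 30 in lactation, a ratio of 15.5 (10.5 to 23.5), and the A-ending tag 182 and 34, a ratio of 13.1 (9.02 to 19.4). The tag 1 base shorter than the commonest form had 134 and 65 reads, a ratio of 5.03 (3.72 to 6.88). In miR-150-5p the tag with 1 added A had 97 reads in involution and 22 in lactation, a ratio of 10.8 (6.72 to 17.97), while the commonest tag had 382 and 198, a ratio of 4.71 (3.96 to 5.62).

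In miR-342-3p the 24 nt length held a smaller share in involution and lengths 1 or 2 bases shorter a larger one, while the mean length was 23.2 nt in both stages. Tags from the first base that stopped before the 24 nt form made up 55.6% in involution (52.9 to 58.2%) and 40.2% in lactation (34.7 to 45.9%). The larger shares lay at 22 and 23 nt, whereas 20 nt tags made up 1.71% in involution and 5.14% in lactation and 21 nt tags 3.98% and 6.11%.
miR-342-3p, 24 nt: tCTCACACagaaatcgcacccatc
miR-342-3p, 23 nt: tCTCACACagaaatcgcacccat
miR-342-3p, 22 nt: tCTCACACagaaatcgcaccca
The 24 nt tag had 419 reads in involution and 161 in lactation, a ratio of 6.35 (5.29 to 7.67). The 23 nt tag had 421 and 51 reads, a ratio of 20.2 (15.05 to 27.5), and the 22 nt tag 255 and 35, a ratio of 17.8 (12.5 to 26.1). The fold difference of miR-342-3p thus depended on which tag was counted.

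**Figure D4:**
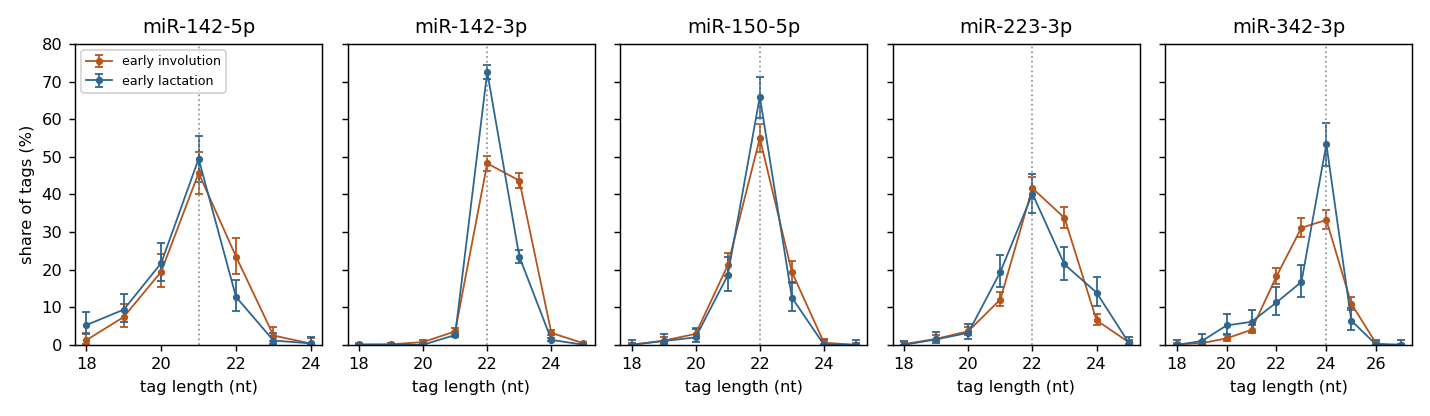
Length of the tags that begin at the first base of each product, as a share of those tags, in early involution (orange) and early lactation (blue), with bars for the exact 95% interval and a dotted line at the length of the commonest form. For miR-142-3p the curves part at the dotted line and just past it, where tags longer than 22 nt make up 47.2% in involution and 24.8% in lactation, and for miR-342-3p they part most at the dotted line, with 33.2% in involution and 53.4% in lactation.

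The opposite arm of miR-342 was not higher in involution, unlike its partner. Tags of miR-342-5p numbered 52 in involution and 206 in lactation, or 7.04 TPM (5.26 to 9.23) and 11.4 TPM (9.92 to 13.1), a ratio of 0.62 (0.45 to 0.84).
miR-342-5p: aGGGGTGCtatctgtggttgagg
In consequence there were 27.5 miR-342-3p tags per miR-342-5p tag in involution and 1.55 in lactation. The 5p arm made up 3.50% of the tags of the pair in involution (2.63 to 4.57%) and 39.2% in lactation (35.0 to 43.6%), a proportion that is also free of the scaling between libraries. The ratio of miR-342-5p also depended on which tag was counted. The 23 nt tag shown had 24 reads in involution and 47 in lactation, a ratio of 1.25 (0.73 to 2.08). The 24 nt tag had 7 and 16, a ratio of 1.07 (0.37 to 2.74). The 22 nt tag had 8 and 45, a ratio of 0.43 (0.18 to 0.93), and a 26 nt tag had 0 reads in involution and 38 in lactation. The other opposite arms were sparse. For miR-150-3p there were 4 tags in involution and 7 in lactation. Of all tags with its opening bases, 51.3% by TPM shared the first 18 bases of the form counted, so the identity of that form is uncertain. No tag began with the opening bases of miR-223-5p in either library. The interval for that count of 0 ran up to 0.499 TPM in involution and 0.205 TPM in lactation.

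Other miRNAs known from immune cells did not rank with the 5 products. Of miR-155-5p, miR-146a-5p, miR-146b-5p, miR-181a-5p and miR-181b-5p, 0 of 5 were called higher and 0 lower, and the median log2 ratio of the 4 that reached 10 TPM was -0.86. Among the tag families, 24.6% of the 439 and 40.0% of the 650 were called higher, and 20 of the 439 were called lower. The level of miR-155-5p, which is induced in activated lymphocytes and macrophages, stood at 696.7 TPM in involution and 1205 TPM in lactation, a ratio of 0.58 (0.56 to 0.60). The level of miR-146b-5p, which targets adaptors of Toll-like receptor signalling, stood at 18283 TPM in involution and 19142 TPM in lactation, a ratio of 0.955 (0.949 to 0.961). The ratios of miR-181a-5p and miR-181b-5p were 0.53 and 0.51, and miR-146a-5p had 40 and 83 tags. These miRNAs are also made outside the blood lineage, and the cell source of these and of the 5 products was not measured.

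Red cell miRNAs, a sign of blood in the tissue, were called higher in involution in 2 of 3 cases. The same call took 24.6% of the 439 tag families and 40.0% of the 650. The level of miR-451a was 2848 TPM in involution and 609.8 TPM in lactation, a ratio of 4.67 (4.56 to 4.78), and that of miR-144-3p 74.6 TPM and 2.27 TPM, a ratio of 32.8 (23.9 to 46.2). The level of miR-486-5p was 274.7 TPM in involution and 327.9 TPM in lactation. The summed level of the red cell list was 3197 TPM in involution and 939.96 TPM in lactation, 3.40 times as high, and that of the 5 leukocyte products 1066 TPM and 234.9 TPM, 4.54 times as high. The part of blood content in the leukocyte difference was not tested.

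The tissue label was met by epithelial miRNAs, which ranged widely in level in both stages. The most abundant, miR-200c-3p, stood at 11551 TPM in involution and 15441 TPM in lactation, a ratio of 0.75 (0.742 to 0.754). The least abundant, miR-203-3p, stood at 21.1 TPM in involution and 35.9 TPM in lactation, a ratio of 0.59 (0.49 to 0.70). By the 2-fold rule 3 of 8 epithelial miRNAs were called higher, miR-141-3p, miR-205-5p and miR-375-3p, with 0 lower. Of the others not called, miR-429-3p had a ratio of 0.72 (0.67 to 0.78), miR-200a-3p 1.48 and miR-200b-3p 1.27. The median log2 ratio of the 8 was 0.46, and their summed level was 26705 TPM in involution and 21128 TPM in lactation. Within that sum, miR-375-3p held 5295 TPM in involution and 279.6 TPM in lactation. Of the 4 stromal and muscle miRNAs, miR-145-5p and miR-214-3p were called higher (summed level 330863 TPM in involution and 317100 TPM in lactation). These list counts stand beside 24.6% of the 439 tag families and 40.0% of the 650 called higher. An arm of the endothelial miR-126 was also called higher, its 5p arm, at 1530 TPM in involution and 361.3 TPM in lactation. The more abundant arm, miR-126-3p, stood at 5864 TPM in involution and 7389 TPM in lactation, a ratio of 0.79 (0.785 to 0.802), and the summed level of both was 7393 TPM in involution and 7750 TPM in lactation. Among the 30 miRNAs examined by name, those nearest in log2 ratio over the 2 libraries were miR-205-5p and miR-451a for miR-150-5p, and miR-145-5p and miR-214-3p for both miR-223-3p and miR-342-3p. For each arm of miR-142 the nearest was the other arm, then miR-126-5p.

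The fold differences depended on the scaling but not their direction. With median-of-ratios factors over the 439 families the ratios were 2.75 for miR-142-5p, 2.74 for miR-142-3p, 4.72 for miR-150-5p, 6.85 for miR-223-3p and 8.90 for miR-342-3p, each still above 2. When only reads identical to the commonest form were counted, miR-142-3p had a ratio of 1.55 and 4 of the 5 products were called higher.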

How the data were processed

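The deposited files give raw counts, 1 per distinct tag: per the description the authors deposited with them, reads were quality-filtered, adaptors were trimmed, reads with adaptor faults, short or polyA reads were dropped, and identical reads were collapsed. The tools behind these steps are not given in the sources used. Tags were 18 to 44 nt long.

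No table of goat miRNA sequences was used. Each miRNA was recognised by its opening 8 bases, known from other mammals, with 1 to 3 later bases where relatives share them, and the commonest tag with that opening (TPM summed over both libraries) served as its mature form. Of all tags with that opening, at least 96.3% by TPM shared the first 18 bases for each of the 5 products. Counts were divided by all clean tags. Because RefSeq mature sequences had been planned as the background, tag families replaced them: tags grouped by first 18 bases, with groups merged that were 5' shifts of up to 3 bases of a commoner one or its 1-mismatch neighbour under 5% of its level, and with a commonest tag of 20 to 24 nt. In this grouping miR-142-5p is represented by its earlier start.

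Intervals are exact Poisson (levels), Clopper-Pearson (shares) and conditional Clopper-Pearson (ratios). The call procedure was run on simulated Poisson counts. These hold no spread between animals, libraries or PCR copies, so the run bears on counting error alone. The members, lists and rules were chosen with earlier results of these data known. Named miRNAs are the 5 products, their opposite arms, the cell-type lists, and for each product the 2 nearest in log2 ratio. Tags are shown as the mature form and up to 4 leading forms of a product. Calculations used Python 3.11.15 with numpy 2.4.6, scipy 1.17.1, pandas 2.3.3 and matplotlib 3.10.9, and R 4.3.3 with edgeR 4.0.16 for TMM factors. The depth was 7385833 tags in involution and 18031615 in lactation, 2.44 times deeper. The authors' filtering logs were not used.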

Additional observations from a re-analysis of the deposited data

Results flagged for a closer look

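Tags of the products with 1 to 3 bases added at the 5' end lie outside the assignment rule. They numbered more than 3, the limit set for this flag, in at least 1 library. For miR-142-5p they numbered 326 in involution and 539 in lactation, nearly all of them the start 2 bases earlier. For the other products they were found in involution alone, with 46 for miR-142-3p, 24 for miR-150-5p, 15 for miR-223-3p and 31 for miR-342-3p, and 0 in lactation for each.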

How the results depend on the processing

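The direction of all 5 ratios was the same in every alternative tried, and 5 of 5 were called higher in each where the call was repeated except identical tags alone, with 4. The call was not repeated after thinning. Median-of-ratios and TMM factors gave 2.75 and 2.63 for miR-142-5p, 2.74 and 2.62 for miR-142-3p, 4.72 and 4.52 for miR-150-5p, 6.85 and 6.56 for miR-223-3p and 8.90 and 8.52 for miR-342-3p. Identical tags alone gave 2.70 for miR-142-5p, 1.55 for miR-142-3p, 4.71 for miR-150-5p and 6.35 for miR-342-3p. Starts at the first base alone gave 2.48 for miR-142-3p, and starts from 3 bases before to 2 bases after gave 2.12 for miR-142-5p. These narrower or wider sets hold other tags by construction. A whole match to the mature form, 1 mismatch, removal of tags read once, scaling to the tag family totals and thinning of the lactation library to the involution total left each ratio within its main interval. With starts from 3 bases before to 3 bases after, the share of miR-142-5p tags off the first base was 53.8% in involution and 67.0% in lactation, against 13.8% and 1.48% by the rule, so the order of the stages turned. The count of higher tag families was 108 of 439 by the main filter. It was 260 of 650 with 10 TPM in at least 1 library and 383 of 960 with no filter on level. With median-of-ratios and TMM factors it was 81 and 77 of the 439. Scaling factors and denominators from the RefSeq miRNA table, the count over that table, and starts read against a hairpin were not run, since no such sequences were used. Tag families, starts read from the tags, and the wider starts were chosen after seeing the data. No paired analysis was possible because each stage has 1 library. Depth limits miR-142-5p starts at the second base (4 lactation tags) and the opposite arms of miR-150 and miR-223.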
